A study of Mus musculus with 32 samples.

Results

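The clustered protocadherins are cell adhesion proteins of the cadherin superfamily, encoded in 3 adjacent gene clusters, alpha, beta and gamma, on mouse chromosome 18. They were measured here in the hippocampus of 16 male mice aged 6 to 8 weeks. 8 mice were Sicd2-ISCL4 subcongenics (called ISCL4 below) and 8 were FVB-like littermates. A subcongenic line carries a shortened stretch of donor chromosome on a host strain's background, and Sicd2 is a locus on chromosome 15. The labels record no treatment, and neither the donor strain nor the length of the carried stretch is used here.

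Members were all array features whose annotated symbols belong to the 3 clusters; a feature with several symbols counted only if all of them did. This gave 23 of 16755 features of the gene-level table and 212 of 188590 features of the exon-level table. All 23 gene-level members were beta genes, 22 genes in all, with 2 features for Pcdhb11. The alpha and gamma clusters were measured at exon level only, with 34 and 66 features beside 112 for beta. RefSeq names 58 genes in the clusters, and 56 of them had an exon-level feature, 43 of them a feature carrying that symbol alone. Pcdha11 and Pcdhac2 are not analysed here.

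In vertebrate neurons these proteins give single cells distinct surface identities. Proteins on facing membranes bind only when their isoforms match, and this recognition is known for dendrite self-avoidance, axon arborization and neuron survival. Each alpha or gamma variable exon has its own promoter and is spliced to constant exons shared within its cluster, which encode a common cytoplasmic tail. Beta genes are single-exon units, each with its own promoter, and lack that shared tail. A neuron switches on a small, partly random set of promoters, a choice that involves the DNA-binding protein CTCF and cohesin, while the C-type isoforms (Pcdhac1, Pcdhac2 and Pcdhgc3 to Pcdhgc5) are used more uniformly. In tissue, a signal is therefore a sum over neurons that express different members, and fewer expressing cells and less RNA per cell cannot be told apart.

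Each mouse gave 1 array, and its exon-level values are no further replicates beside the gene-level ones. For all 21 beta genes with 1 gene-level feature, the gene-level value equalled the mean of that gene's exon-level values within 0.001 in every mouse. All values are log2 signals, and a difference is ISCL4 minus FVB-like. Differences came from limma with array set as a covariate, and a feature was called where its adjusted p (Benjamini-Hochberg, over the whole table of that level) was under 0.05. The array sets are 2 naming schemes of the array files in the labels: replicates 1 to 4 of each genotype form set A and replicates 5 to 8 set B. The family was chosen by its gene symbols after the log2 differences of this very contrast had drawn attention to its beta genes, so the genotype differences and their adjusted p values describe the members and are not independent evidence. Members resemble each other in sequence, so a probe can pick up more than 1 of them.

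The beta genes whose difference was called lay in the earlier part of the cluster, from Pcdhb2 to Pcdhb11. At gene level 19 of 23 features had lower values in ISCL4 mice and 4 higher, with a median difference of -0.17, against a median of 0.004 and 47.9% below 0 over all features. 6 of the 23 were called, all lower, where 0.292% of all features were called in either direction and 0.125% as lower. They were Pcdhb2, Pcdhb3, Pcdhb4, Pcdhb6, Pcdhb8 and Pcdhb11, all adhesion receptors of the single-exon type.

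**Figure D1:**
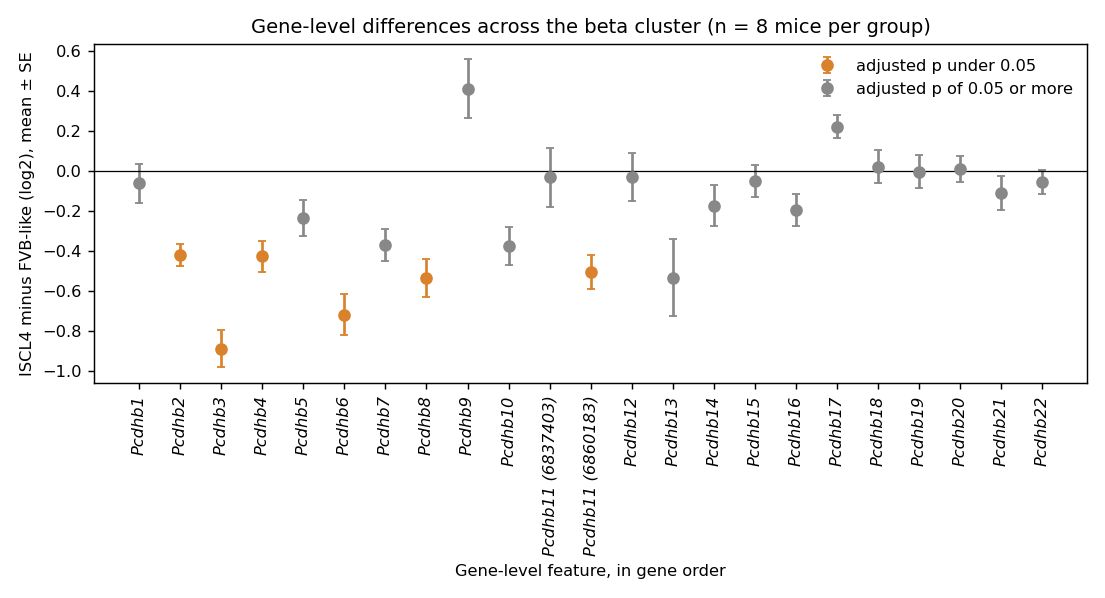
Gene-level difference, ISCL4 minus FVB-like (log2), of each beta feature in gene order, with points as estimates and bars as ± 1 SE from limma (8 mice per group). The called features (orange) lie between Pcdhb2 at -0.42 and Pcdhb11 at -0.50, Pcdhb9 stands above 0 at 0.41, and the features after Pcdhb13 lie between -0.19 and 0.22.

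Pcdhb3 had the largest gene-level difference among the members. Its signal was 8.36 to 9.03 in littermates (median 8.72) and 7.41 to 8.31 in ISCL4 mice (median 7.67). The groups did not overlap. The means were 8.70 ± 0.22 and 7.81 ± 0.34 (SD, n = 8 each), a difference of -0.89 (SE 0.094, limma adjusted p = 0.000295), or a 1.85-fold higher signal in littermates.

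Pcdhb6 ran from 7.33 to 8.22 in littermates (median 7.80) and from 6.66 to 7.87 in ISCL4 mice (median 6.83). The groups overlapped: 5 of 8 ISCL4 mice lay below the lowest littermate, and ISCL4 replicate 3 had the highest value of its group. The difference was -0.72 (SE 0.102, limma adjusted p = 0.00616).

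Pcdhb2 varied least among littermates of the 23 features, from 8.20 to 8.38 (median 8.35), and ran from 7.63 to 8.07 in ISCL4 mice (median 7.92). All 8 ISCL4 mice were below all littermates. Its difference was -0.42 (SE 0.057, limma adjusted p = 0.00453), and its 6 exon-level features lay close together, between -0.47 and -0.34.

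Pcdhb11 was read by 2 gene-level features that gave different values. Feature 6860183 ran from 6.95 to 7.52 in littermates (median 7.09) and from 6.46 to 6.81 in ISCL4 mice (median 6.70), with no overlap and a difference of -0.50 (SE 0.085, limma adjusted p = 0.0213). Without ISCL4 replicate 8 its adjusted p was 0.0512. Feature 6837403 differed by -0.03 (SE 0.147, limma adjusted p = 0.947). The feature numbers of the other 22 members ran from 6860160 to 6860211 in gene order, whereas 6837403 sat between features annotated to Cyp2d genes of chromosome 15, so which sequence it reads is uncertain.

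Pcdhb4 ran from 7.56 to 7.96 in littermates (median 7.79) and from 7.09 to 7.55 in ISCL4 mice (median 7.34). The groups did not overlap, by a narrow gap. The difference was -0.43 (SE 0.076, limma adjusted p = 0.0266), and the call was lost, at an adjusted p of up to 0.070, without FVB-like replicate 3, 5 or 7 or ISCL4 replicate 4, 6 or 8.

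Pcdhb8 ran from 7.93 to 8.33 in littermates (median 8.14) and from 7.34 to 7.97 in ISCL4 mice (median 7.59), with 7 of 8 ISCL4 mice below all littermates. Its difference was -0.53 (SE 0.095, limma adjusted p = 0.0276). With the replicate number taken as a block it was not called (adjusted p = 0.0526), while the other 5 were, where 0.107% of all features were called. The call was also lost, at up to 0.0724, without FVB-like replicate 3 or 7 or ISCL4 replicate 2, 4, 6, 7 or 8.

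**Figure D2:**
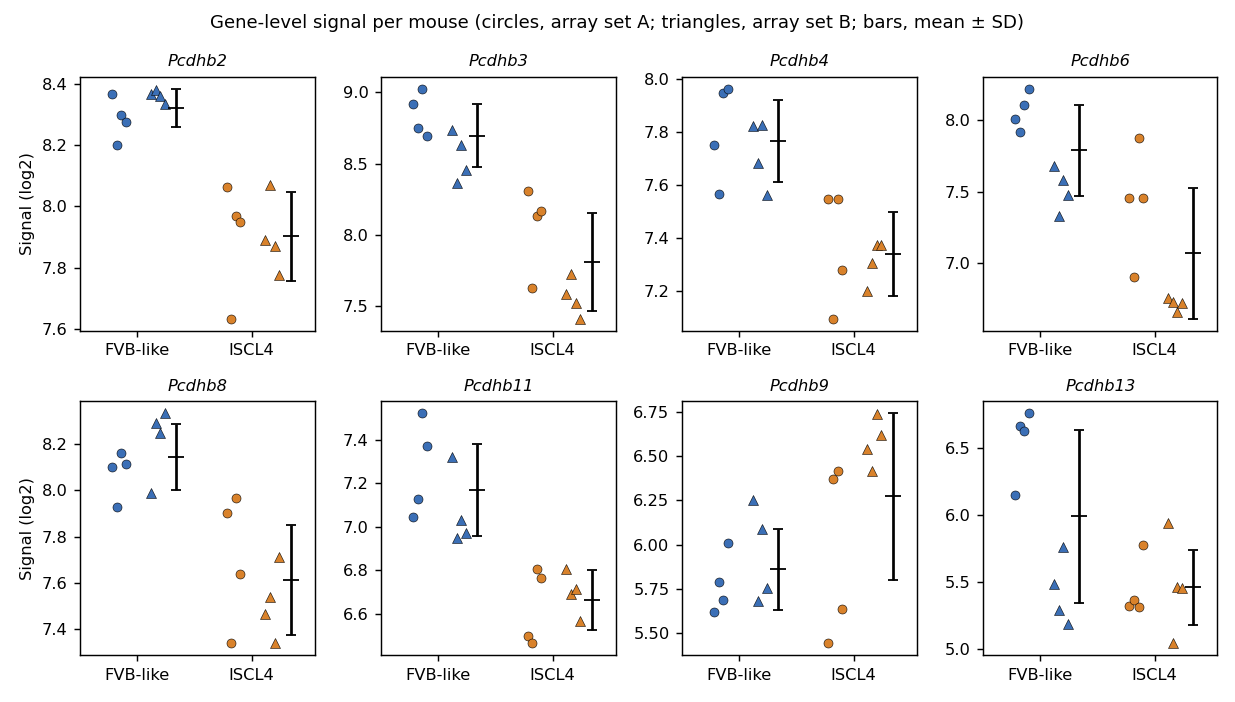
Gene-level log2 signal of each mouse for the 6 called beta genes (Pcdhb11 by feature 6860183), Pcdhb9 and Pcdhb13, with circles for array set A, triangles for set B and bars for mean ± SD (n = 8). In Pcdhb3 the littermates (8.36 to 9.03) lie above all ISCL4 mice (7.41 to 8.31), and in Pcdhb13 the groups lie apart in set A only.

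Over all 23 features, groups were fully apart, with ISCL4 lower, in 4 (Pcdhb2, Pcdhb3, Pcdhb4 and Pcdhb11), against 0.0477% of all features. Compared within each array set, 4 mice against 4, the groups were apart and ISCL4 lower in both sets in 5 members, these 4 and Pcdhb6, against 0.239% of all features. No member was apart and higher over all mice, or in both sets, where 0.0716% and 0.263% of all features were.

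Pcdhb9 went the other way without being called. It ran from 5.62 to 6.25 in littermates (median 5.77) and from 5.44 to 6.74 in ISCL4 mice (median 6.42), and 6 of 8 ISCL4 mice were above all littermates. The difference was 0.41 (SE 0.146, limma adjusted p = 0.227). Among its neighbours, Pcdhb7 differed by -0.37 (SE 0.080, limma adjusted p = 0.0717), Pcdhb10 by -0.37 (SE 0.095, limma adjusted p = 0.109) and Pcdhb5 by -0.24 (SE 0.090, limma adjusted p = 0.251). Pcdhb7 and Pcdhb10 were thus the uncalled members nearest to the threshold, and Pcdhb8 the called one.

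Taken by gene order, a division made after the values were seen, the 10 features from Pcdhb2 to Pcdhb11 (feature 6860183) comprised all 6 called members, with 9 lower and a median of -0.42. Averaged over these 10, the signal was 7.22 to 7.51 in littermates and 6.83 to 7.21 in ISCL4 mice, with no overlap. The 11 features from Pcdhb12 to Pcdhb22 had 0 calls by limma and a median of -0.05. At an unadjusted p under 0.05, 2 of them were lower and 1 higher, where 6.89% and 7.51% of all features were. Their averages, 6.98 to 7.58 and 7.07 to 7.28, overlapped. That small median joins array sets that differed in direction: within set A 10 of these 11 were lower (median -0.17), and within set B 3 were lower and 8 higher (median 0.08). From Pcdhb2 to Pcdhb11, 9 of 10 were lower within each set, with medians of -0.41 in both. Pcdhb1, ahead of Pcdhb2, differed by -0.06 (SE 0.097) at a dim signal of 5.15 ± 0.17 in littermates.

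Within the later stretch Pcdhb17 was higher in ISCL4 mice by 0.22 (SE 0.059, limma adjusted p = 0.121), and Pcdhb18, Pcdhb19 and Pcdhb20 differed by 0.02, -0.003 and 0.01. Pcdhb13 differed by -0.53 (SE 0.193, limma adjusted p = 0.235), as much as the called Pcdhb8 but with a wider error, from 5.99 ± 0.65 to 5.46 ± 0.28 (SD, n = 8). Within array set A it was -1.11, and within set B 0.04.

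The exon-level table showed how the differences were distributed within genes and extended the picture to alpha and gamma. Across all clusters 128 of 212 features were lower and 84 higher, with 48.9% of all exon-level features below 0. 5 were called, all lower, where 0.0249% of all exon-level features were called in either direction, 0.0053% as lower and 0.0196% as higher. 3 of the 5 belonged to Pcdhb3, 1 to Pcdhb6 and 1 to Pcdhgb8. With the replicate number as a block 2 of these 5 were still called, a feature each of Pcdhb3 and Pcdhb6, where 0.0159% of all features were called.

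**Figure D3:**
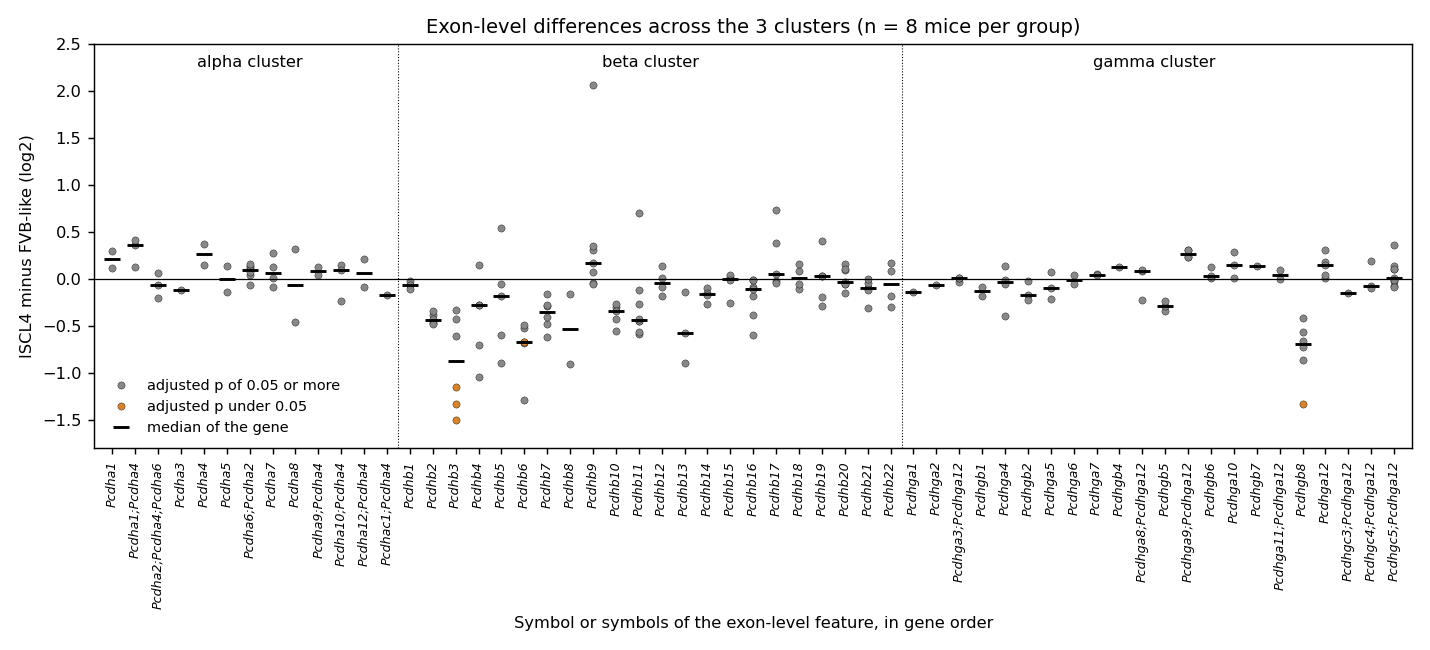
Exon-level difference, ISCL4 minus FVB-like (log2), of all 212 features of the alpha, beta and gamma clusters, arranged by gene order (points, single features; black dashes, median per symbol group; orange, called). The low points gather between Pcdhb2 and Pcdhb11 and at Pcdhgb8, the highest point is the Pcdhb9 feature at 2.07, and the alpha cluster has 24 of 34 features above 0.

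In the alpha cluster, whose proteins share a cytoplasmic tail through the constant exons, 10 of 34 features were lower and 24 higher, with a median of 0.11. None was called by limma; 3 were higher and 0 lower at an unadjusted p under 0.05, where 5.16% and 5.07% of all features were. The mean signal over all 34 was 6.90 to 7.08 in littermates and 6.87 to 7.18 in ISCL4 mice. The features annotated to Pcdha1 and Pcdha4 together were higher at 3 of 3, by 0.12 to 0.41, and both of Pcdha4 alone were higher, by 0.15 and 0.38. The 2 Pcdha8 features went opposite ways, at -0.45 and 0.32. The feature annotated to Pcdhac1 and Pcdha4, the only one for that C-type isoform, differed by -0.17.

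In the beta cluster 86 of 112 features were lower, with a median of -0.17. The features of Pcdhb2 to Pcdhb11 (all 8 annotated to Pcdhb11 included) had 48 of 56 lower with a median of -0.42, and those of Pcdhb12 to Pcdhb22 had 35 of 53 lower with a median of -0.06. Every feature was lower in Pcdhb1, Pcdhb2, Pcdhb3, Pcdhb6, Pcdhb7, Pcdhb8 and Pcdhb10 and, in the later stretch, in Pcdhb13, Pcdhb14 and Pcdhb16. Pcdhb5 was mixed, from -0.89 to 0.55.

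All 6 features of Pcdhb3 were lower, between -1.50 and -0.32. Feature 5539991 ran from 9.53 to 10.21 in littermates (median 9.76) and from 7.89 to 9.49 in ISCL4 mice (median 8.43). The groups were apart by a narrow gap. Its difference was -1.15 (SE 0.137, limma adjusted p = 0.0038; 0.0293 with the replicate block), and it stayed called without any single array.

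The other called Pcdhb3 features, 4331968 and 5181158, differed by -1.33 (SE 0.188, limma adjusted p = 0.0197) and -1.50 (SE 0.210, limma adjusted p = 0.0177). Neither was called with the replicate block, at adjusted p = 0.168 and 0.0839. In Pcdhb6, feature 4845897 ran from 8.31 to 9.74 in littermates (median 9.04) and from 7.64 to 9.11 in ISCL4 mice (median 8.26). These ranges overlapped, but within each array set the groups were apart, and the difference was -0.67 (SE 0.098, limma adjusted p = 0.0235; 0.0397 with the replicate block). Leaving out single arrays raised its adjusted p to as much as 0.0683 and ended the call for 9 of 16.

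Of the 7 Pcdhb9 features 5 were higher, with a median of 0.17, but most of the size of its gene-level difference came from 1 of them. Feature 5504994 ran from 2.61 to 4.74 in littermates (median 3.97) and from 3.79 to 7.29 in ISCL4 mice (median 6.38). The 4 ISCL4 mice of array set B were highest, and the feature was dim, with a mean over all mice under the 25th percentile of the table. Its difference was 2.07 (SE 0.455, limma adjusted p = 0.188), 0.84 within set A and 3.30 within set B, while the other 6 features lay between -0.05 and 0.35.

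The gamma cluster as a whole was divided evenly, with 32 of 66 features lower, 34 higher and a median of 0.006. By subfamily of the first symbol, the A-type features had 11 of 33 lower (median 0.04). The B-type features other than Pcdhgb8 had 8 of 13 lower (median -0.08), and the features of the C-type isoforms had 7 of 14 lower (median -0.004). All of these C-type features are also annotated to the A-type Pcdhga12, so the annotation does not assign them to the C-type isoforms alone. Pcdhgb8, which RefSeq lists as a transcribed pseudogene, is singled out after its values were seen.

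All 6 features of Pcdhgb8 were lower, from -1.33 to -0.42 with a median of -0.69. The feature at -0.42, 5076863, turned direction by array set, at 0.60 in set A and -1.44 in set B. Averaged over the 6, the signal was 7.59 to 8.26 in littermates (median 7.85) and 6.54 to 7.92 in ISCL4 mice (median 7.09). The groups overlapped, with 6 of 8 ISCL4 mice below all littermates. The average differed by -0.37 in array set A and -1.15 in set B.

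The called Pcdhgb8 feature, 5082060, ran from 7.85 to 8.81 in littermates (median 8.38) and from 6.00 to 8.10 in ISCL4 mice (median 6.77). Within each array set all ISCL4 mice were below all littermates, although the pooled ranges overlapped. Its difference was -1.33 (SE 0.191, limma adjusted p = 0.0218), and it was not called with the replicate block (adjusted p = 0.133) or, at up to 0.0662, without any 1 of 8 arrays. The same held for separation within both sets at 2 more Pcdhgb8 features, 4724260 and 5357464, which differed by -0.66 (limma adjusted p = 0.120) and -0.86 (limma adjusted p = 0.0905).

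**Figure D4:**
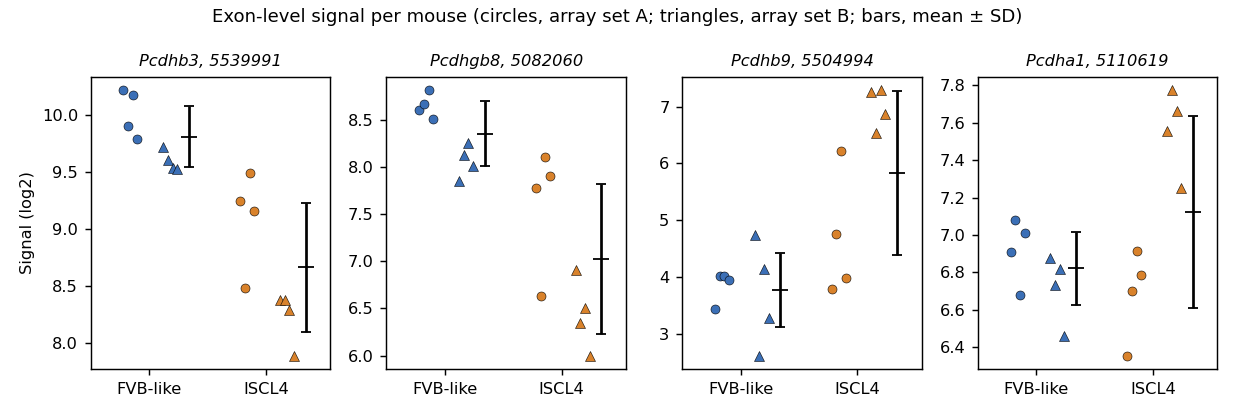
Exon-level log2 signal of each mouse at features of Pcdhb3, Pcdhgb8, Pcdhb9 and Pcdha1, with circles for array set A, triangles for set B and bars for mean ± SD (n = 8). In the Pcdhgb8 panel the ISCL4 mice of set A reach 8.10, within the littermates' overall range, yet in each set they lie below the littermates.

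Other gamma members differed less. Pcdhgb5, an adhesion receptor whose variable exon lies ahead of that of Pcdhgb8, had 3 of 3 features lower by 0.23 to 0.34 in size, with limma adjusted p of 0.285 to 0.388. The 4 features annotated to Pcdhga9 and Pcdhga12 were higher by 0.23 to 0.31, with limma adjusted p of 0.400 to 0.590. Pcdhga12 alone had 5 of 5 features higher, by 0.01 to 0.31. The platform annotation does not say which exon-level features read variable and which read constant exons, so the shared tails of alpha and gamma could not be set apart.

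Over the 212 features, the groups were apart and ISCL4 lower in 6, at 1 feature each of Pcdhb2, Pcdhb7, Pcdhb8 and Pcdhgb8 and 2 of Pcdhb3, against 0.0223% of all exon-level features. Within both array sets this held for 11 features, 8 in the beta cluster from Pcdhb2 to Pcdhb8 and 3 of Pcdhgb8, against 0.111%. 0 were apart and higher over all mice or in both sets, where 0.0323% and 0.133% of all features were.

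The comparison of the array sets did not enter the choice of members and is a test. In set B against set A 46.4% of all gene-level features were called by limma, 22.4% lower and 23.9% higher. Among the 23 gene-level members 9 were called (39.1%), which is no larger a share, with 8 lower in set B and 1 higher. The largest were Pcdhb6 at -0.63 (SE 0.102, adjusted p = 0.00015), Pcdhb13 at -0.54 (SE 0.193, adjusted p = 0.030), Pcdhb18 at -0.47 (SE 0.082, adjusted p = 0.00027) and Pcdhb20 at -0.47 (SE 0.066, adjusted p = 3.57e-05).

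Several members with genotype differences near 0 fell from set A to set B. Pcdhb20, for example, had a mean of 7.89 in set A and 7.42 in set B, while its genotype difference was 0.01. Among members with larger genotype differences, Pcdhb17 (0.22) fell by 0.42, and the fall in Pcdhb3 (-0.89) was 0.40 (limma adjusted p = 0.00266). Pcdhb9 was the called member that rose, by 0.39 (limma adjusted p = 0.0394). At exon level 74 of 212 (34.9%) were called, 51 lower and 23 higher. This was no larger a share than the 38.7% of all features, 18.9% lower and 19.8% higher.

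Whether the genotype difference itself depended on array set was tested as an interaction. None of the 23 gene-level members was called by limma, against 0.00597% of all features. At an unadjusted p under 0.05, 4 of 23 passed, Pcdhb10, Pcdhb12, Pcdhb13 and Pcdhb21, where 6.45% of all features did. The smallest was Pcdhb13, with an interaction of 1.15 (unadjusted p = 0.00058, adjusted p = 0.423). At exon level no member was called, and 25 of 212 had an unadjusted p under 0.05 against 6.22% of all features. Among them, feature 5110619 of Pcdha1 differed by -0.23 in set A and 0.84 in set B (limma interaction, unadjusted p = 0.00012, adjusted p = 0.581).

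**Figure D5:**
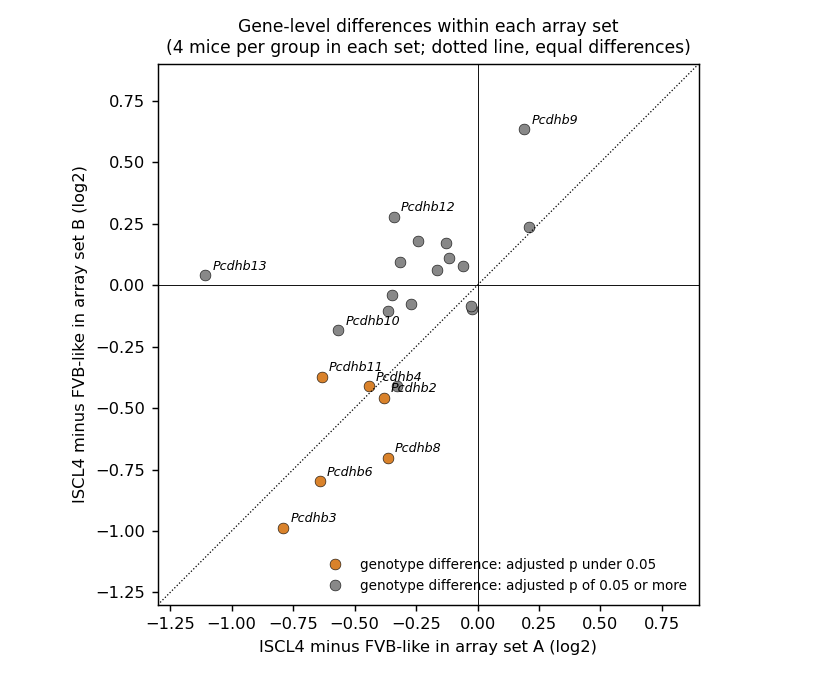
Gene-level difference, ISCL4 minus FVB-like (log2), within array set A (horizontal axis) and set B (vertical axis) for the 23 beta features, 4 mice per genotype in each set; orange points are called in both sets together. The 6 called features are below 0 in both sets, from -0.36 to -0.79 in set A and -0.37 to -0.99 in set B, and Pcdhb13 is at -1.11 in set A and 0.04 in set B.

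The genes flanking the clusters on chromosome 18 were measured at gene level. The alpha genes directly precede Pcdhb1 and have no gene-level feature, so the measured genes ahead of the beta cluster are not its immediate neighbours. Of 8 such genes, Tmco6 to Zmat2, 2 were lower and 6 higher, between -0.17 and 0.37. Of the 8 measured genes after the beta cluster, Slc25a2 to Pcdh1, 3 were lower and 5 higher, between -0.03 and 0.16, and none was called. This second stretch passes over the gamma cluster, which has no gene-level feature either. Taf7, a general transcription factor subunit gene that lies between the beta and gamma clusters, differed by 0.11 (SE 0.074). Its signal was dim, with a mean of 5.19 in littermates.

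Among 22 listed neighbours 4 were called, where 0.292% of all features were. The list was made with earlier results of these data known and leaves out some uncalled genes of the same stretch. The count therefore describes the list and is not a test. Fgf1, a fibroblast growth factor gene, was higher by 1.67 (SE 0.091), Rnf14, a ubiquitin ligase gene, by 0.55 (SE 0.047) and Ndufa2, a respiratory complex I subunit gene, by 0.37 (limma adjusted p = 0.034). Ndfip1, an adaptor of ubiquitin ligases, was lower by 0.20 in size (limma adjusted p = 0.0345). With the replicate block Ndufa2 and Ndfip1 were not called (adjusted p = 0.0617 and 0.0751).

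The listed regulators of protocadherin promoter choice and chromatin, among them the CTCF, cohesin and Smchd1 genes, had 13 of 23 lower and 0 called by limma, with a median of -0.01. At an unadjusted p under 0.05, 3 were lower and 1 higher, where 6.89% and 7.51% of all features were. The widest shifts were Wapl, a cohesin release factor, at -0.16 and the cohesin subunit gene Stag2 at -0.15, with unadjusted p of 0.009 and 0.0183. Partners and signalling genes had 12 of 18 lower and 0 called by limma, with 5 lower at an unadjusted p under 0.05 against 6.89% of all features. Pdcd10, which binds protocadherin tails, differed by -0.48 (SE 0.099, limma adjusted p = 0.0619) and Nckap1, a WAVE complex subunit gene, by -0.14.

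Other members of the superfamily had medians near 0, 0.009 for non-clustered protocadherins and -0.055 for other large cadherins. Non-clustered protocadherins had 3 of 9 measured genes lower and 0 called by limma, with Pcdh17 at 0.10 and Pcdh15 at 0.09. At an unadjusted p under 0.05, 2 of these 9 were higher and 0 lower, where 7.51% and 6.89% of all features were. Of 16 other large cadherins listed, 8 were measured, with 5 lower and 0 called by limma. Celsr3 differed by 0.15 and Cdh11 by -0.11, and 1 of the 8 was higher and 0 lower at that unadjusted p.

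Marker genes of cell types and adjoining tissues were read beside these results, and none of those measured was called by limma. At an unadjusted p under 0.05, 6.89% of all features were lower and 7.51% higher, to be read beside the counts that follow. Oligodendrocyte markers were lower at 12 of 14 (median -0.18; 8 at an unadjusted p under 0.05), with list means of 9.31 to 9.72 in littermates and 9.09 to 9.59 in ISCL4 mice; Opalin and Aspa differed most, by -0.55 and -0.48, at unadjusted p of 0.0019 and 0.0007. Striatum markers were lower at 6 of 6 (median -0.20), with list means of 7.93 to 9.29 and 7.91 to 8.68. The 9.29 was FVB-like replicate 2 alone, and the next highest littermate was at 8.38. Choroid plexus markers were lower at 7 of 7 (median -0.18; 0 at an unadjusted p under 0.05, as for striatum), with list means of 7.27 to 8.76 and 7.10 to 8.98. Meninges and fibroblast markers were lower at 10 of 10 (median -0.11; 3 at an unadjusted p under 0.05), with list means of 7.72 to 8.37 and 7.63 to 8.31. Their part in the protocadherin differences was not tested.

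Excitatory neuron markers had 5 of 11 lower, with list means of 9.46 to 9.56 in littermates and 9.44 to 9.60 in ISCL4 mice. Interneuron markers had 1 of 9 lower (3 higher at an unadjusted p under 0.05), astrocyte markers 4 of 8, microglia markers 3 of 8 and thalamus markers 1 of 6.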

How the data were processed

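The authors deposited log2 signals. The submitters' processing notes name RMA, the Partek software (6.6) and build mm9; what each was used for is not given in the sources used here. As usually run, RMA subtracts background, equalises array distributions and summarises probes. Groups and replicate numbers came from sample titles, and array sets from array names in the labels. Symbols came from the platform annotation and gene order from RefSeq (GRCm38.p6); since the builds differ, no coordinates or sequences are given.

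limma 3.58.1 (R 4.3.3) was fitted to each whole table with genotype and array set, and p values were adjusted over all features; the fit was tested on simulated data. The number of arrays limits precision: the median SE of a difference was 0.062 at gene level and 0.117 at exon level. No detection call was used, so dim values can be background: 3 of 23 and 42 of 212 members had a mean signal under the 25th percentile of all features. Array medians were 7.29 to 7.34 at gene level, and pairs of arrays correlated at 0.973 to 0.995.

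Replicate numbers are shared by the genotypes. Same-numbered mice deviated together from their group means (correlations 0.296 to 0.487 at gene level, 0.221 to 0.421 at exon level), so a block fit was run; within array sets the correlations were -0.05 to 0.25 and 0.01 to 0.14.

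The members, the gene lists and the tests were chosen with earlier results of these data known. All members may be named; of each list, the called genes and the 2 with the largest absolute difference were named, and of the neighbours any gene. The planned split into variable and constant exons could not be made. Alternatives were no array set term, the block, quantile normalization, median centring, leaving out dim features, each array set alone, leaving out each array and a trended, robust eBayes.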

Additional observations from a re-analysis of the deposited data

Results flagged for a closer look

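At exon level, Pcdhgb8 feature 4724260 in FVB-like replicate 2 had a signal of 8.45, apart from the next littermate at 8.29, where the lowest was 8.16; the gap was 0.567 of the group's range, above Dixon's 95% critical value for 8 samples. It was 1 of 72 groups of 8 mice examined, and chance flags about 1 in 20 such groups. With this mouse the littermates were already above all ISCL4 mice, whose highest value was 8.05.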

How the results depend on the processing

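No called result reversed its direction under the alternatives run. The 6 gene-level calls became 5 without an array set term, 5 with the replicate block and 7 without dim features. They became 7 with the trended, robust eBayes, but 0 in array set A alone and 2 in array set B alone. Over all gene-level features the calls went from 49 to 15, 18, 84, 102, 0 and 5 under these 6 settings. Leaving out single arrays gave 3 to 7 calls, 3 without ISCL4 replicate 8 and 7 without ISCL4 replicate 3. Over all gene-level features the calls were 19 and 28 in the same fits, and 19 to 66 across the fits without single arrays. The beta median at gene level of -0.17 was -0.33 with set A alone, -0.076 with set B alone and -0.22 to -0.13 without single arrays.

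The 5 exon-level calls became 0 without an array set term, 2 with the replicate block and 11 without dim features. They became 0 in set A alone, 2 in set B alone and 19 with the trended, robust eBayes. Over all exon-level features the calls went from 47 to 23, 30, 99, 1, 13 and 273 in the same order. Without single arrays there were 1 (without ISCL4 replicate 7) to 8 (without ISCL4 replicate 3) calls. Over all exon-level features these fits gave 29 and 47 calls, and the fits without single arrays gave 26 to 47. Among the members, 3 calls were left without FVB-like replicates 6, 7 or 8 or ISCL4 replicates 6 or 8. The beta median at exon level was -0.27 for set A alone and -0.074 for set B alone; the alpha median was 0.030 for set A alone.

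The 4 calls among pathway and neighbour genes became 2 without an array set term, 2 with the replicate block, 0 in array set A alone and 1 in array set B alone. Without single arrays there were 2 (without FVB-like replicate 5 or 7 or ISCL4 replicate 2 or 8) to 6 (without ISCL4 replicate 1). Over all gene-level features the same fits gave 19 to 28 calls and 55 calls. Some of the alternatives use fewer arrays or features, and the cause of these moves was not tested. The replicate block ended the calls of Pcdhb8 and of 3 exon-level members and changed no other call of a member.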

Other observations

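ISCL4 mice did not lie at one level in the members that differed. Among the 4 ISCL4 mice of array set A, replicate 2 was the lowest in all 6 called gene-level members, against 5 of 17 uncalled ones and 26.5% of all gene-level features. It was so in all 5 called exon-level members, against 55 of 207 uncalled ones and 27.1% of all features; gene-level values are means of exon-level ones, so these counts are not separate. In Pcdhb3 it had a signal of 7.62, against 8.13 to 8.31 in replicates 1, 3 and 4, and in Pcdhb6 it had 6.90, against 7.45 to 7.87. In Pcdhb11 (feature 6860183) the gap was narrow, 6.46 against a next lowest of 6.50. Replicate 2 was singled out after the values were seen, and these calls rest on low ISCL4 values. The shares over uncalled members and over all features are therefore not like comparisons.

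Replicates 1, 3 and 4 were the 3 highest of the 8 ISCL4 mice in all 5 called exon-level members and in 2 of the 6 called gene-level members, Pcdhb3 and Pcdhb6. Among uncalled members this held for 14 of 207 at exon level and 3 of 17 at gene level, and among all features for 7.13% and 8.21%. The same 3 mice were the 3 lowest ISCL4 mice in Fgf1, the neighbour with the largest rise, at 8.64, 8.47 and 8.53, while the other 5 lay between 9.05 and 9.22 and the littermates between 7.10 and 7.38. This order was noticed after the values were seen. The 3 mice all belong to array set A, and Pcdhb3 and Pcdhb6 differed by -0.40 and -0.63 in set B against set A. The share over all features is therefore not a like comparison. Where these 3 mice are highest, replicate 2 is the lowest of set A, so the 2 observations are not separate. Rnf14 did not show the order, with replicates 1, 6 and 7 lowest.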
